A study of Mus musculus with 4 samples.

Results

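Transcripts of the immunoglobulin heavy-chain locus (Igh) were examined in mouse bone marrow LSK cells, the lineage(-) Sca-1(+) cKit(+) fraction, in which stem cells and early progenitors of the blood are found. The set was defined by position: gene probes that start within the locus on chromosome 12 (mm9), are well above background on at least 1 array and do not belong to a named gene outside the immunoglobulins. The 104 probes found this way lie within chr12:114395683-117247905, of 55675 gene probes on the array, of which 32575 were well above background somewhere. A further 50 immunoglobulin or unannotated probes of the region were not well above background on any array, and 7 detected probes of Tedc1, Tmem121, Adam6b and Zfp386 were left out. Male C57BL/6 mice gave the cells, with 4 genotypes. These were wild type (WT), Aspp1-/- (germline loss of Ppp1r13b, a partner of p53), Mx1-Cre(+)p53flox/flox, called p53-/- here, and Mx1-Cre(+)Aspp1-/-p53flox/flox, called Aspp1-/-p53-/-. Mx1-Cre is a recombinase driven by an interferon-responsive promoter, and all 4 groups, WT and Aspp1-/- included, received the interferon inducer pIpC in 5 injections from the age of 8 weeks, with collection of the cells after 4 more weeks, at 12 weeks. The dose of the series design is 400 μg of pIpC for every genotype, while the sample labels read 400 μg for WT and 401, 402 and 403 μg for the mutants. Each array received pooled RNA of 3 mice, and each genotype had 1 array, so no difference between a pair of arrays has a replicate check, and the single error available is the scanner's technical one.

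The heavy-chain locus builds the larger chain of every antibody and of the B cell receptor. In B-lineage precursors the Rag1/Rag2 recombinase joins a diversity (D) and a joining (J) segment and then 1 of many variable (V) segments, and the constant gene Ighm, which encodes the mu chain, lies next to the J segments and is used first. Segments that have not been joined can also be transcribed without being rearranged, as germline transcripts, and progenitors with lymphoid potential are known to transcribe Ighm in this form. The V segments are grouped into families by sequence, and V1, also called J558, is the largest family in the mouse and lies at the end of the locus far from Ighm.

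The probes are 60 bases long, and their sequences, given 5′ to 3′ as deposited, show which part of a transcript each value reports. The V1 probes below were chosen because they carry the pattern described next or depart from it, and capitals mark runs that several V1 probes share, read from the start of the V segment towards its end. Ighv1-66, Ighv1-85, Ighv1-77, Ighv1-83, Ighv1-80, Ighv1-7 and Ighv1-67 carry the pattern, whereas Ighv1-15, Ighv1-23, Ighv1-75, Ighv1-81 and Ighv1-54 depart from it.
Ighv1-66: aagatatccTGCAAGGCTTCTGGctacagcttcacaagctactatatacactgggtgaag
Ighv1-85: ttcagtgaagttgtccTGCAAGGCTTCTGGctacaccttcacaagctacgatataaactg
Ighv1-77: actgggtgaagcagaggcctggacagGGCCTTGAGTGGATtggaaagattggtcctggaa
Ighv1-83: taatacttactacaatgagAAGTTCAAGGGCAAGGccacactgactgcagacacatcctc
Ighv1-80: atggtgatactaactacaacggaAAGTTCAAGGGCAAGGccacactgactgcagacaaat
Ighv1-7: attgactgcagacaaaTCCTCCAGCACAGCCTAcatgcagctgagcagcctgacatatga
Ighv1-67: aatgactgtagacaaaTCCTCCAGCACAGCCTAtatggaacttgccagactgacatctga
Ighv1-15: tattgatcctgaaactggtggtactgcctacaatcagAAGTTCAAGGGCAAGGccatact
Ighv1-23: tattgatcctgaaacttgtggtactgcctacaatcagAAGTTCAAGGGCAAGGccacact
Ighv1-75: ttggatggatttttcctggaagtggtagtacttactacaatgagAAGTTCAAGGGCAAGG
Ighv1-81: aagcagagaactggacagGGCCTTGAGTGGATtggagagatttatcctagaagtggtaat
Ighv1-54: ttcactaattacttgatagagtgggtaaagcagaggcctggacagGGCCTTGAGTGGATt

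Groups of 4 signals are given in the order WT, Aspp1-/-, p53-/-, Aspp1-/-p53-/- throughout, as processed signals of the scanner. The signal depends on a probe's sequence as well as on its transcript, so a probe is compared with itself across arrays and not with other probes. Ppp1r13b had signals of 13182, 2247, 12759 and 2060, and Trp53 had 730, 820, 164 and 169, so both targeted genes were low on the arrays labelled as lacking them. All 12 stem and LSK gate markers were measured, with a summed signal between 201685 and 231498. The share of gene probes well above background lay between 50.3% and 53.3%, and differences were taken on log2 signals scaled to each array's 75th percentile. The p53-/- and Aspp1-/-p53-/- arrays also shared a slide row and Mx1-Cre, so that slide row, Mx1-Cre and loss of p53 cannot be told apart. Ppp1r13b itself lies on chromosome 12, with its probe 1.59 Mb from the Ighm probe, so the loss of Aspp1 and any difference in the stretch of chromosome that is inherited with the targeted allele cannot be told apart for this locus either.

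Of the 104 members, 64 were V segments, 4 were probes of named constant genes, 17 were other immunoglobulin transcripts, 4 were lincRNA probes and 15 had no annotation. The transcription strand was minus for 101 of them, the strand on which the locus is read, and plus for 3. WT had 80 members well above background (76.9%, beside 91% of all detected probes), Aspp1-/- 92 (88.5%, beside 90.4%), p53-/- 75 (72.1%, beside 87.5%) and Aspp1-/-p53-/- 71 (68.3%, beside 86%). Members seen on 1 array alone numbered 14 for Aspp1-/-, 6 for p53-/-, 2 for WT and 0 for Aspp1-/-p53-/-. These single-array members made up 13.5% of the set for Aspp1-/-, where 2.46% of all detected probes were seen on that array alone, 1.92% for WT, beside 2.98%, 5.77% for p53-/-, beside 2.82%, and 0% for Aspp1-/-p53-/-, beside 2.41%. Because this is bulk RNA, fewer cells that carry a transcript and less of it per cell cannot be told apart.

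The V1 family, with 35 members between 1048 and 2579 kb from the Ighm probe, held 14 of the 28 members higher in Aspp1-/- than in WT, 17 of the 27 lower in p53-/- than in WT and 21 of the 29 higher in Aspp1-/-p53-/- than in p53-/- by at least 2-fold, beside 1.21%, 1.35% and 2.31% of all probes. It held 5 of the 16 past 2-fold between Aspp1-/-p53-/- and WT and 0 of the 15 between Aspp1-/-p53-/- and Aspp1-/-, where 3.4% and 2.33%, and 3% and 1.85%, of all probes were higher and lower. Among its 28 probes well above background on all 4 arrays, 19 had the order Aspp1-/- highest, then Aspp1-/-p53-/-, then WT, then p53-/-. This order was noticed in these data and so is a description; it held for 24 of the 58 members on all 4 arrays and for 2.69% of all 26465 probes on all 4 arrays. Over all 35 V1 members the median signal was 644 in Aspp1-/-, 482 in Aspp1-/-p53-/-, 362 in WT and 205 in p53-/-, and over the 19 probes, whose choice fixes the order, it was 1503, 1102, 643 and 317. With a step of at least 0.2 on the log2 scale demanded between neighbours in the order, 17 V1 probes still had it, against 33 probes on the whole array. The choice of the 19 puts their differences between Aspp1-/- and WT and between Aspp1-/-p53-/- and p53-/- above 0, but does not set how far. They were 0.67 to 1.41 and 0.96 to 2.71 on the log2 scale. Over the other 9 V1 probes on all 4 arrays they were −1.57 to 1.35 and −0.76 to 1.54.

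**Figure D1:**
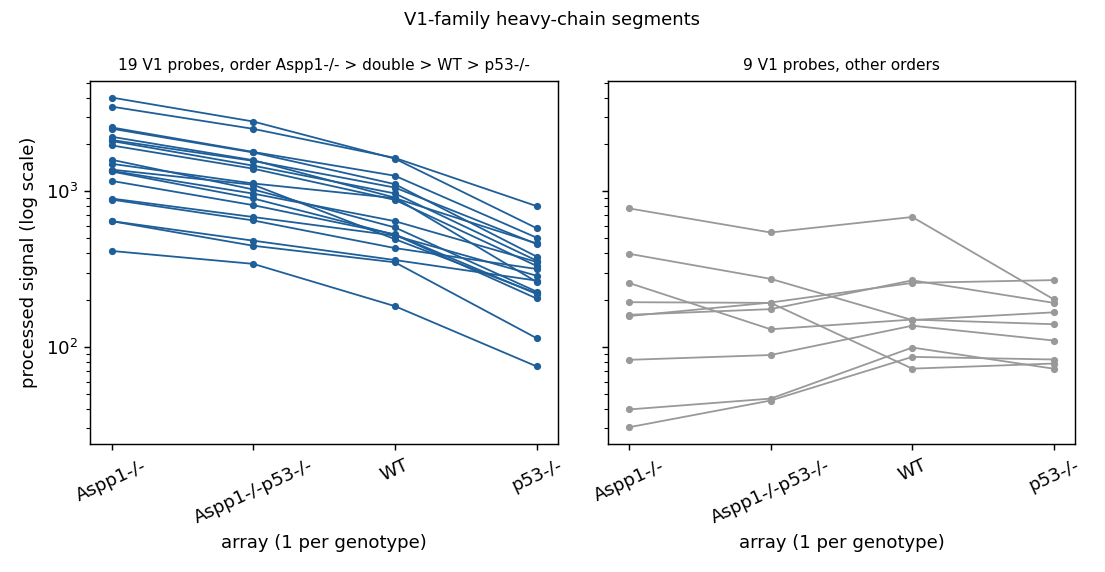
Processed signal, on a log axis, of the 28 V1-family probes well above background on all 4 arrays, with 1 line per probe and 1 point per array. The 19 lines of the left panel fall from Aspp1-/- to Aspp1-/-p53-/-, WT and p53-/-, and the 9 of the right panel take other orders.

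Ighv1-66 had signals of 911, 2242, 262 and 1585. It was the V1 probe with the widest gap between the arrays without p53, with a log2 difference of 2.71 between Aspp1-/-p53-/- and p53-/-, and a scanner error of about 0.21 is typical for such a difference. Ighv1-7, near the start of the V1 stretch, had 1621, 4005, 580 and 2809. Both probes were thus lowest without p53 alone and high on each array without Aspp1.
Ighv1-85, the V segment of the set farthest from Ighm, gave 1112, 2525, 381 and 1777. Ighv1-77 gave 1639, 3501, 804 and 2520. Ighv1-67 gave 493, 1379, 222 and 1102, with log2 differences from WT of 1.41 for Aspp1-/- and 1.25 for Aspp1-/-p53-/-. Segments from both ends of the V1 stretch, at 1117.1 kb (Ighv1-7) and 2578.8 kb (Ighv1-85) from Ighm, therefore shared the order of arrays. Further V1 probes past 2-fold in this order were Ighv1-39 (586, 1596, 227 and 1028), Ighv1-56 (526, 1341, 205 and 900), Ighv1-50 (183, 414, 75.1 and 342), Ighv1-80 (881, 1973, 332 and 1398) and Ighv1-2 (969, 2106, 359 and 1462). Ighv1-84, at 350, 643, 114 and 447, missed 2-fold against WT in Aspp1-/-, with 0.81 on the log2 scale, and passed it in the other direction in p53-/-, at −1.64.

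The other 9 V1 probes on all 4 arrays differed from this and among themselves. Ighv1-23 had 86.4, 30.5, 83.1 and 45.3, and Ighv1-36 had 99.2, 39.7, 72.5 and 46.6. Both were lower on each array without Aspp1, at −1.57 and −1.39 in Aspp1-/- against WT, the opposite of their family. Ighv1-9, Ighv1-15 and Ighv1-75 were lower in Aspp1-/- than in WT without reaching 2-fold, at −0.81, −0.79 and −0.78. Between Aspp1-/-p53-/- and p53-/-, Ighv1-9 and Ighv1-15 differed by −0.02 and −0.19, less than their scanner errors of 0.22 and 0.25.
Ighv1-81 (684, 777, 202 and 544) differed by 0.11 between Aspp1-/- and WT but by −1.78 between p53-/- and WT. Ighv1-5 (72.6, 194, 78.3 and 192) and Ighv1-54 (149, 397, 167 and 274) were 1.35 higher in Aspp1-/- than in WT and differed by 0.09 and 0.14 between p53-/- and WT. Ighv1-78 and Ighv1-58, measured on 3 arrays, had 80.1 and 69.1 in WT and 32.1 and 35.7 in Aspp1-/-, or −1.39 and −1.02 on the log2 scale, and were not well above background in Aspp1-/-p53-/-. In all, 5 of the 9 probes were lower in Aspp1-/- than in WT, with a range over the 9 from −1.57 to 1.35. The 19 probes could not be lower there, since their order requires Aspp1-/- to be above WT. The 9 had WT signals of 72.6 to 684, with a median of 149, and the 19 had 183 to 1639, with a median of 643. These ranges overlap, but the median of the 9 lies below the lowest value of the 19, so the 9 were mostly dimmer. What part the size of the signal has in the order was not tested.

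The probe sequences bear on how far these values are separate. The run TGCAAGGCTTCTGG, near the start of V1, stood in 6 probes with the order and in none of the 9 without it. GGCCTTGAGTGGAT, near the middle, stood in 4 with and 3 without, and AAGTTCAAGGGCAAGG stood in 5 with and 4 without. Beside these counts, 67.9% of the 28 V1 probes had the order, and the runs were read from chosen probes. The counts of such runs are a description only, and a link between a run and the order was not tested. TCCTCCAGCACAGCCTA was in 3 probes with the order and none of the 9 without. Searched on both strands of the 55675 probes, these runs were in 0.0126%, 0.0162%, 0.0162% and 0.00718% of them. All 19 probes with the order, and 8 of the 9 without, held a run of at least 16 bases that also occurs in another member's probe. The probes of Ighv1-15 and Ighv1-23 were identical at 58 of 60 bases. One transcript may therefore light several V1 probes, which was not measured, and the 28 probes are not taken as 28 independent measurements.

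The other V families, with 29 members, had the V1 order in fewer probes. Ighv14-3 (1545, 2631, 765 and 1867) and Ighv9-3 (466, 1364, 224 and 833) had the order of the V1 probes, as did 1 of the Ighv5-17 probes (234, 488, 144 and 248). Ighv9-3 was 1.48 higher in Aspp1-/- than in WT on the log2 scale and 2.0 higher in Aspp1-/-p53-/- than in p53-/-. These 3 were all the V segments outside V1 with the order, of 10 on all 4 arrays.
Ighv9-2 was high in Aspp1-/- alone, with 39.8, 173, 40.7 and 52.4. Ighv7-1 (158, 136, 40 and 6.01) and Ighv7-3 (118, 142, 33 and 5.15) were high on the WT and Aspp1-/- arrays, at −2.01 and −1.87 in p53-/- against WT, and were not well above background in Aspp1-/-p53-/-. Ighv5-9 (68.1, 78.1, 21.8 and 30.5) was likewise higher on the WT and Aspp1-/- arrays. Ighv6-3 went the other way, with 32.2, 23.5, 75.2 and 36.8, of which the Aspp1-/- value was not well above background. Ighv3-8 (20, 53.9, 46.7 and 33.2) was higher than WT in each single mutant, by 1.36 and 1.20.

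Members seen on 1 array had signals of at most 130. Aspp1-/- alone showed, among its 14, a further Ighv5-17 probe at 130, an unannotated probe, NAP018620-001, at 95.4 and Ighv2-9 at 75.1. On the p53-/- array alone, Ighv5-16 gave 89.2 and the unannotated A_55_P1997956 and A_55_P2126185 gave 78.6 and 78.3, and on the WT array alone Ighv1-31 gave 49.2 and the unannotated A_55_P2030403 gave 22.5. The second Ighv5-17 probe lay on the same segment as the one measured on all 4 arrays, so the pair disagree on whether WT, at 234 and 6.96, is above background.

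**Figure D2:**
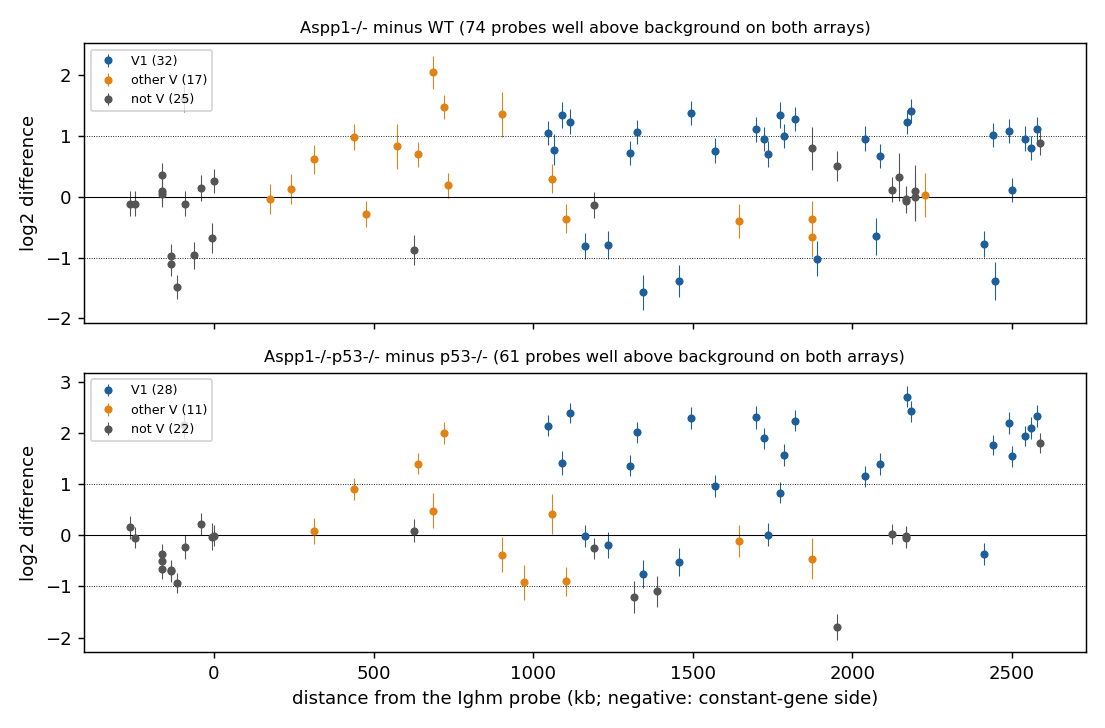
Log2 difference between Aspp1-/- and WT (top) and between Aspp1-/-p53-/- and p53-/- (bottom) against distance from the Ighm probe in kb, for members well above background on both arrays of the comparison, with the scanner's technical error as bars and 2-fold as dotted lines. V1 probes lie in the far stretch of the locus, mostly at about 1 in the top panel and between 1 and 3 in the bottom panel, and a few lie below 0.

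At the constant-gene end, most probes did not have the V1 order. In the gene order of RefSeq (GRCm38.p6), the constant genes run Igha, Ighe, Ighg2c, Ighg2b, Ighg1, Ighg3, Ighd and Ighm from the Tmem121 side, and the files name probes of only some of them. The probes shown here stand for mu (Ighm), for the place that RefSeq gives to Igha (XM_003085465), for a gamma chain (ENSMUST00000103418) and for Ighg1, and capitals mark a run shared by the first Ighg1 probe and ENSMUST00000103423, which the files describe only as expressed sequence AI324046.
Ighm: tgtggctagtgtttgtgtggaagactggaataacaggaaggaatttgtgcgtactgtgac
XM_003085465: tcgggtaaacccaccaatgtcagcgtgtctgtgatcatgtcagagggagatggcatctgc
ENSMUST00000103418: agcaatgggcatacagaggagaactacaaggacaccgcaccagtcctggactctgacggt
Ighg1, first probe: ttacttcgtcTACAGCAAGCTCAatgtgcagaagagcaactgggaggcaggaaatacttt
Ighg1, second probe: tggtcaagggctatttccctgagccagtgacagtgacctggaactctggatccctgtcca
ENSMUST00000103423: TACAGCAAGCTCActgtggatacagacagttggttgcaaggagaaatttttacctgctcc

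Ighm, at chr12:114659630-114659689, gave signals of 7229, 9103, 5488 and 5031, each the mean of 10 spots with a standard deviation between spots of 0.0412 to 0.085 on the log2 scale. It was above WT by 0.26 in Aspp1-/- and below it by 0.42 in p53-/- and 0.43 in Aspp1-/-p53-/-. The mu constant gene was therefore within 2-fold on every array, and the arrays without p53 differed by −0.01 from each other there, where Ighv1-66 differed by 2.71. Ighd, the delta constant gene, is not named in the files, but a probe described as delta and labelled Ighv14-2, placed 5.4 kb from Ighm, gave 80.1, 52.3, 74.3 and 67.4.
XM_003085465 (18089, 24285, 19317 and 13855) and XM_001472091 (7536, 8496, 8650 and 5055) lie between Tmem121 and Ighe. Another probe there, named Igh-VJ558, gave 663, 716, 641 and 418. All 3 were lowest in Aspp1-/-p53-/-, by −0.30 to −0.58 against WT. Ighe, the epsilon constant gene, was well above background on the p53-/- array alone, at 70.2.

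The 3 probes described as IgG2a or as a gamma polypeptide were lower in Aspp1-/- than in WT and lower in Aspp1-/-p53-/- than in p53-/-. BC019489 and AK007918, described as serum IgG2a, had 4483, 2183, 3388 and 1937 and 2597, 1382, 1540 and 868. ENSMUST00000103418, a gamma polypeptide, had 1851, 698, 1671 and 810, or −1.48 between Aspp1-/- and WT and −0.93 between the arrays without p53. The AK007918 and BC019489 probes lie beside each other, and their log2 differences from WT were −0.98 and −1.11 in Aspp1-/-, −0.78 and −0.43 in p53-/- and −1.49 and −1.12 in Aspp1-/-p53-/-.
For Ighg1 the probes disagreed. The first gave 141, 452, 62.8 and 258, the order of the V1 probes, with 1.61 between Aspp1-/- and WT and 2.15 between the arrays without p53. The second gave 186, 180, 129 and 102 and was within 2-fold of WT in every mutant. ENSMUST00000103423, which shares TACAGCAAGCTCA with the first probe and with no other of the 55675, gave 179, 96.5, 8.08 and 208, and its p53-/- value was not well above background, so it did not have the order. No level of Ighg1 is given from these probes.

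**Figure D3:**
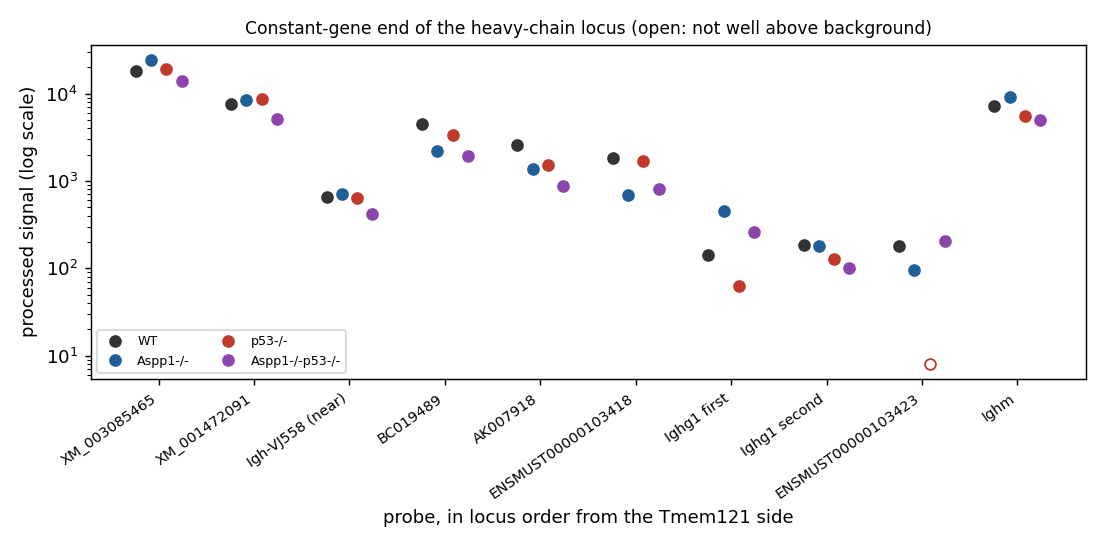
Processed signal, on a log axis, of 10 probes at the constant-gene end of the locus in their order from the Tmem121 side, with 1 point per array and open points where the probe was not well above background. The Ighm points lie between 5031 and 9103, and the points of Ighg1's first probe spread from 62.8 to 452.

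A probe at the far end of the locus joined the V1 pattern. LOC100505009, described as similar to a mu chain, had 1376, 2672, 552 and 1777. Its sequence, shown with the heptamer CACAGTG in capitals, has the V-segment end tgtgcaaga directly before it.
LOC100505009: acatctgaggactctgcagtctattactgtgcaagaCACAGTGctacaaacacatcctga
CACAGTG is the heptamer of the recombination signal that borders a V segment before it is joined. Counting both strands, it stood in 1.61% of all 55675 probes, and the run TGTGCAAGACACAGTG stood in this probe alone. CACAGTG itself was in the probes of 3 members, and a match is a description of the letters only. The LOC100505009 probe shares a run of at least 16 bases with 4 probes outside the set, the longest of 27 bases. Where its signal arises is therefore not known.

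Of the 15 members without annotation, 3 were among the 10 named for the highest mean level. A_55_P2151907 (111401, 108490, 108510 and 97185), A_55_P1960083 (80975, 81781, 79840 and 73013) and a NAP093099-001 probe (16051, 18308, 17218 and 16167) differed from WT by at most 0.12 on the log2 scale. They differed by less than their scanner error and did not take part in the pattern. A_55_P1960083 shares a run of at least 16 bases with 21 probes outside the set, the longest of 29 bases. A_55_P2151907 shares 16 bases with 1 such probe, described as ribosomal protein L7A, pseudogene 8. Where the signals of these probes arise is not known.
Among the rest, a second NAP093099-001 probe had 24.9, 45.4, 12.6 and 144, and A_55_P2160243, with which it shares 42 bases, had 26.1, 34.4, 6.44 and 57.6. A_55_P2048603 (42.2, 15.7, 89.1 and 35.7) and A_55_P1970479 (43.3, 18.1, 91.6 and 39.7) were highest in p53-/-, and a cDNA of the locus named Igh-VJ558, 1951.0 kb from Ighm, had 54.9, 81.8, 217 and 58.2. ENSMUST00000103497, of the V15 family, had 269 in Aspp1-/- and 38.0 in Aspp1-/-p53-/-, a log2 difference of −2.67, and ENSMUST00000103468, of the V11 family, was 1.51 higher in Aspp1-/-p53-/- than in Aspp1-/-, with 145 against 57.1. None of the 4 lincRNA probes passed 2-fold or exceeded a signal of 36.

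The size rule, a difference of at least 2-fold, was applied to each comparison, with a bound where the dimmer array was not well above background. In Aspp1-/- against WT, 28 members were higher and 10 lower among 98 with a value, beside 1.21% and 1.23% of all probes. Of these, 18 and 6 were measured on both arrays, beside 0.369% and 0.447% of all probes so measured. In the V1 family 14 of 35 were higher, all of them measured, and 6 were lower. Over the 74 members measured on both arrays the median log2 difference was 0.28, and it was 0.95 for V1 and 0.01 for all probes.
In p53-/- against WT, 10 members were higher and 27 lower among 87, beside 3.48% and 1.35% of all probes. Measured on both arrays were 5 and 22, beside 0.965% and 0.611%. V1 held 17 of the lower ones and none of the higher ones. The median was −0.45 over the members, −0.98 for V1 and 0.02 for all probes. The V1 signal was thus mostly lower on the p53-/- array.
In Aspp1-/-p53-/- against WT, 5 members were higher and 11 lower among 83, beside 3.4% and 2.33% of all probes, and 4 and 5 were measured on both arrays, beside 1.22% and 1.41%, with medians of 0.29 over the members and 0.68 for V1. Most V1 probes lay above WT here but under 2-fold, and 2 of them, Ighv1-5 and Ighv1-67, passed it, at 1.5 and 1.25. Ighv1-36 was 2-fold lower, at −1.0, and Ighv1-58 and Ighv1-78 were lower by bounds of −1.46 and −1.67 or less.
In Aspp1-/-p53-/- against p53-/-, 29 members were higher and 9 lower among 85, beside 2.31% and 3.34% of all probes, and 24 and 3 were measured on both arrays, beside 0.689% and 1.08%. V1 held 21 of the higher ones and none of the lower ones. The V1 median was 1.67, against 0.15 over all members. In Aspp1-/-p53-/- against Aspp1-/-, 4 members were higher and 11 lower among 95, beside 3% and 1.85% of all probes, and 3 and 3 were measured on both arrays, beside 0.912% and 0.975%. No V1 member passed 2-fold there in either direction, and the V1 median was −0.32.

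A test could be made only by assuming that the effects of losing each gene add up, with limma (y ~ Aspp1 + p53, 1 residual degree of freedom, Benjamini-Hochberg over 32575 probes). No member and no other probe passed an adjusted p of 0.05 for either term (0% of all probes), and the smallest adjusted p among members was 0.751 for Aspp1 and 0.63 for p53. At an unadjusted p under 0.05, the Aspp1 term took 37 members, 24 higher and 13 lower, or 35.6% of them, beside 4.64% of all probes (1.86% higher and 2.78% lower). The p53 term took 19 members, 3 higher and 16 lower, or 18.3%, beside 7.9% of all probes (3.56% higher and 4.33% lower). Of the members taken, 23 for Aspp1 and 9 for p53 were well above background on all 4 arrays, of 58 such members, beside 3.36% and 6.15% of all probes so detected. The others, 14 and 10, include members seen on 1 array alone (5 and 2), whose remaining values are at background. A p that misses the threshold in a design with 1 residual degree of freedom does not show that the values are alike.

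Loss of Aspp1 was compared on 2 pairs of arrays with none in common, WT with Aspp1-/- and p53-/- with Aspp1-/-p53-/-. The comparisons against WT share the WT array, and their values stand side by side only. Over the 28 V1 probes the differences had the same sign in all 28, and 13 (46.4%) were at least 2-fold higher in both, beside 22 of 26465 probes (0.0831%). Some of these signs rest on differences within the scanner error, such as −0.02 for Ighv1-9 between the arrays without p53. Across the 58 members on all 4 arrays 50 had the same sign, with Pearson's r = 0.74 across probes, beside r = 0.20 for all 26465 probes, where 59.5% had the same sign. The members may share transcripts, many share sequence runs and all share the arrays, so r is a description. For the loss of p53, compared in the same way, 41 of the 58 had the same sign (70.7%), with r = 0.24, beside 61.2% and r = 0.37 for all probes, and no member was past 2-fold in both. The V1 medians of these were −0.98 and −0.32.

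**Figure D4:**
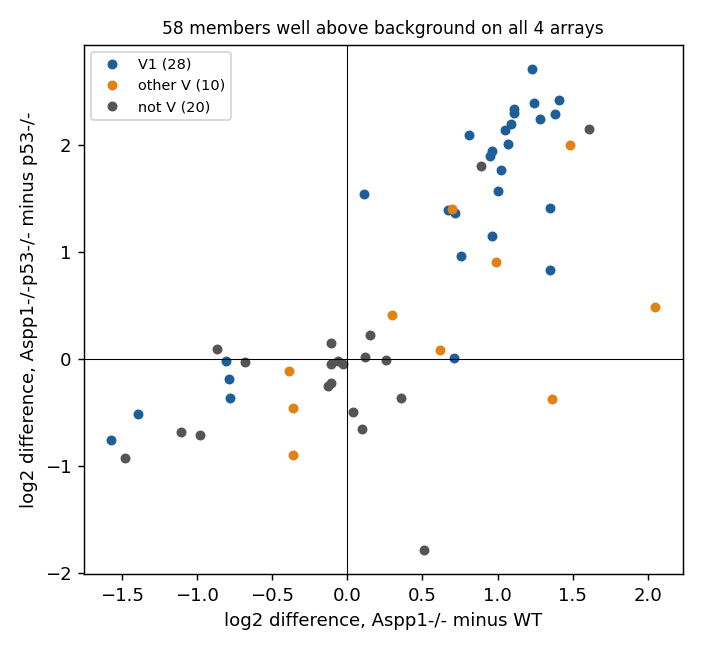
Log2 difference between Aspp1-/- and WT (x axis) against that between Aspp1-/-p53-/- and p53-/- (y axis), with 1 point for each of the 58 members well above background on all 4 arrays. V1 points lie in the upper right or, for the few lower without Aspp1, in the lower left, with all 28 on the same side of 0 on both axes.

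Genes that act on the locus were given by list. V(D)J recombination genes showed no member past 2-fold in any comparison, of 12 measured. Rag1 and Rag2, the recombinase, had 148, 96.3, 166 and 133 and 225, 201, 302 and 254, both lowest in Aspp1-/-, where most V1 probes were highest. Dntt, which adds bases at the joins, had 62966, 55334, 61363 and 53165. None of the 12 measured factors of locus contraction and accessibility, such as Ctcf and Yy1, passed 2-fold, and their medians lay between −0.02 and 0.04. Class switch and hypermutation genes had none past 2-fold among 9 measured. In a given direction and comparison, 0.369% to 1.41% of all probes measured on both arrays were past 2-fold. A list of 9 to 12 genes with none is near that share and does not show that its genes were unchanged.
Pre-B receptor and B-lineage genes, 19 measured of 20, mostly differed from WT in the sign opposite to V1 in the single mutants. In Aspp1-/- against WT 15 of the 19 were below 0, with a median of −0.26, beside 13796 of 28426 probes measured on both arrays. In p53-/- against WT 16 were above 0, with a median of 0.18, beside 14895 of 27350 probes. These medians are close to the scanner error of 0.21, and the genes share the same arrays, so the signs are a description. Vpreb1, a surrogate light chain, had 2213, 1755, 2823 and 2222, and Igll1, its partner, had 291, 211, 397 and 348. Cd79a, a signalling chain of the receptor, had 244, 201, 312 and 269. None of these passed 2-fold, and Irf4, a transcription factor of later B cells, was the member past it, at −1.31 between Aspp1-/-p53-/- and WT and −1.0 between Aspp1-/-p53-/- and Aspp1-/-. Pax5 was not well above background on any array.

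Markers of B cells and plasma cells stand beside these values. The mature B list had 12 of 14 genes measured and a summed signal of 11864, 11455, 12039 and 10322, with Cd40 and Blk not well above background on any array and Ms4a1, the gene of CD20, well above it on the Aspp1-/- array alone, at 33.6. The plasma cell list, with all 10 measured, summed to 42636, 42060, 39370 and 45490, and without Eaf2 (15375, 14042, 13759 and 22410), left out after its values were seen, to 27262, 28018, 25610 and 23078. Jchain, which joins secreted antibodies, had 2797, 3939, 2057 and 1340, and was past 2-fold lower in Aspp1-/-p53-/- than in Aspp1-/-, at −1.40.
Jchain and Ighm were both highest in Aspp1-/-. Jchain was lowest in Aspp1-/-p53-/-, whereas Ighm had no clear lowest array, since the arrays without p53 differed by −0.01 there. Sdc1, a plasma cell surface protein, had 514, 443, 527 and 409. Pro-B and pre-B markers, 12 of 14 measured, summed to 13003, 11492, 15225 and 12498. Granulocyte markers, 9 of 10 measured, summed to 89457, 81264, 81234 and 28719, lower in Aspp1-/-p53-/-. What part cells of these types have in the heavy-chain values was not tested.

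**Figure D5:**
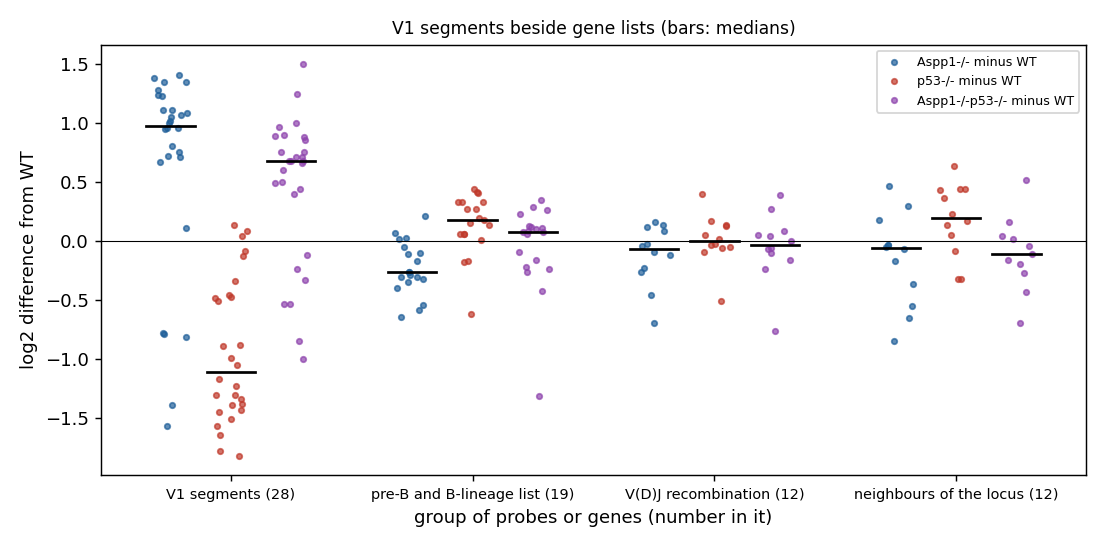
Log2 difference from WT on each mutant array for the 28 V1 probes, the B-lineage list (19 genes), the V(D)J recombination list (12) and the neighbours of the locus (12), with 1 point per probe or gene and a bar at the median. V1 points are mostly above 0 in Aspp1-/- and Aspp1-/-p53-/- and below 0 in p53-/-, and the genes of the lists lie closer to 0.

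None of the 12 measured genes around the locus was past 2-fold in any comparison, which for so few genes is near the share of all probes. Tedc1, on the constant side, had 4863, 2830, 6699 and 3805, and Crip1 had 42995, 30849, 49235 and 30083. Zfp386, at the V end and named after its values were seen, had 4554, 3047, 7193 and 3748, or −0.65, 0.64 and −0.19 against WT. These 3 were highest in p53-/-, while Ncapg2, also at the V end and named after its values were seen, was higher on both arrays without Aspp1, at 1997, 2900, 1915 and 2700. For Vipr2 the listed probe had 1482, 1757, 1766 and 1554, whereas another, A_55_P2033676, had the V1 order with steps of at least 0.2, at 99.3, 184, 67.2 and 108. Of the 12, 9 were below 0 in Aspp1-/- against WT (3 above, median −0.06), beside 13796 of 28426 probes measured on both arrays. In p53-/- against WT 9 were above (3 below, median 0.20), beside 14895 of 27350. Between Aspp1-/-p53-/- and p53-/- 10 were below (2 above, median −0.40), beside 13503 of 26687. The counts include bounds, and the genes share arrays, so the signs are a description. Most neighbours thus leaned opposite to V1 here, under 2-fold, while Ncapg2 did not. Tmem121 had 1727, 1616, 2383 and 1642.

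Light-chain genes lie on other chromosomes, and their values show whether the heavy-chain pattern was shared. Igkc, the kappa constant gene, had 15571, 21608, 9531 and 7106. Like Ighm, it was highest in Aspp1-/- and below WT on each array without p53. Of 26 kappa probes on all 4 arrays 4 had the order of V1, and all were V segments: Igkv1-133 (92.1, 957, 68.6 and 280), Igkv2-109 (58.6, 244, 45.6 and 73.0) and a pair of probes for 1 other segment. Other kappa segments differed from these and from one another. Igkv15-103 had 2240, 2026, 509 and 79.7, and Igkv4-73 had 1013, 184, 266 and 155. Iglc2, a lambda constant gene, had 376, 1189, 1096 and 473. Among kappa probes with a value, 12 were at least 2-fold higher and 13 lower of 51 in Aspp1-/- against WT, beside the 1.21% and 1.23% of all probes given above. Against WT, 3 were higher and 19 lower of 48 in p53-/- (all probes 3.48% and 1.35%), and 6 were higher and 30 lower of 52 in Aspp1-/-p53-/- (3.4% and 2.33%). Aspp1-/-p53-/- had 6 higher and 17 lower of 46 against p53-/- (2.31% and 3.34%) and 1 higher and 23 lower of 51 against Aspp1-/- (3% and 1.85%). These kappa counts include bounds. Between Aspp1-/-p53-/- and p53-/-, kappa probes past 2-fold were thus mostly lower, and V1 members past 2-fold were all higher. Measured on both arrays there were 4 higher and 6 lower of 27 kappa probes, beside 0.689% and 1.08% of all probes. Of the V1 members, 20 were higher and measured on both arrays. Most of the lower kappa calls are therefore bounds from dim probes. No T cell receptor probe on all 4 arrays (7 alpha, 5 beta and 1 gamma) had the order, beside 2.69% of all probes so detected. So few probes cannot show whether the order was absent there.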

How the data were processed

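LSK cells of 4 genotypes were profiled on 4 one-colour (Cy3) Agilent arrays, 1 per genotype. Per the file headers, the software behind the spot intensity values was Agilent Feature Extraction 10.7.3.1, and probe positions are in mm9; the deposited intensity is background-subtracted, on a linear scale and not normalised between arrays. The files' other deposited values are flags of 0 or 1, of which the one for spots well above background was used. The authors' value table holds log2 values, with the median of each probe over the arrays taken off, and with the per-array constant not given in the sources used here; its column medians were −0.0661 (WT), −0.0422 (Aspp1-/-), 0.0267 (p53-/-) and 0.0478 (Aspp1-/-p53-/-), and in each of the 5 comparisons its differences matched the scanner's with r = 1 over 26465 probes (those above background on every array).

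Control spots and outlier spots were left out, spots of a probe averaged, and log2 intensity set relative to each array's 75th percentile. Differences of at least 2-fold (log2 of 1) were counted. Where the dimmer value was not well above background, it was replaced by the higher of itself and that array's lowest signal well above background (18.5 to 24.9), which gives a bound. The median scanner error of a difference was 0.21, technical only. The additive model used limma 3.58.1 in R 4.3.3. It was also run on simulated data with equal noise for every probe and exactly additive changes. The real values, with many members near background, differ from that, so the simulation does not show how the model performs on them. Gene names were updated through RefSeq (GRCm38.p6). Genes were named by rule (constant genes, highest levels, largest measured differences, single-array members, list order); Ighv1-9, Ighv1-15, Ighv1-75, Ighv1-83, LOC100505009, Zfp386, Ncapg2, Vipr2, Eaf2, Sdc1 and the light-chain genes were chosen after their values were seen. Members and lists were chosen with earlier results of these data known. The alternatives were normexp (offset 50), quantile normalization, probes on all 4 arrays and the authors' table.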

Additional observations from a re-analysis of the deposited data

Results flagged for a closer look

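A pair of members changed in opposite directions on losing the same gene, by more than the scanner error, when the other gene was present or lost. With 1 array per genotype the difference between those effects was not tested. For the loss of Aspp1, Ighv3-8 was at 1.36 on the log2 scale where p53 was present and −0.38 where it was lost, and for the loss of p53 it was at 1.20 with Aspp1 and −0.54 without. The Igh-VJ558 cDNA in the V1 stretch was at 0.51 and −1.79 for the loss of Aspp1, and at 1.96 and −0.33 for the loss of p53.

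Among probes with no position in the files, so outside the set, those with the array order of V1, each step at least 0.2, and a run of 16 bases in common with a member were picked out. AY208318, described as a heavy-chain variable region, was at 1.0 for the loss of Aspp1 with p53 present and 1.61 with p53 lost. The unannotated A_55_P2176753 was at 1.05 and 2.09, with signals of 5145 and 3545 on the arrays without Aspp1, 2375 on the WT array and 898 on the p53-/- array. Capitals mark a run that Ighv1-7 also holds.
A_55_P2176753: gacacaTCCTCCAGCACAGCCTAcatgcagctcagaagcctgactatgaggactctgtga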

How the results depend on the processing

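No paired analysis was possible because each genotype has 1 array and the labels carry no replicate numbers, so no replicate could be left out either. The alternatives for the array order, V1 medians, unadjusted counts and single members were added after seeing the data. The array order held for 19 V1 probes under normexp, quantile normalization and the authors' table, and for 24 to 26 members. None of the 77 member differences of 2-fold or more on all 4 arrays turned in direction under 4 alternatives. Of these alternatives, the restriction to probes on all 4 arrays cannot alter such values. The authors' table matched the scanner's differences with r = 1, so it is not a separate check either, also for the array order. Counts that rest on dim probes moved. Against WT, normexp gave 12 members higher and 2 lower for Aspp1-/-, 1 and 16 for p53-/- and 3 and 4 for Aspp1-/-p53-/-. It gave 1 lower for Aspp1-/-p53-/- against p53-/-, and 1 higher and 2 lower for Aspp1-/-p53-/- against Aspp1-/-. When every probe had to be well above background on each of the 4 arrays, which tests fewer probes, the counts against WT were 18 and 4 for Aspp1-/-, with a median of 0.64, and 2 and 4 for Aspp1-/-p53-/-, and 2 were higher for p53-/-. Then 1 was lower for Aspp1-/-p53-/- against p53-/-, and 1 was higher and 1 lower for Aspp1-/-p53-/- against Aspp1-/-. The authors' table gave 16 members lower in Aspp1-/-p53-/- against p53-/- and 21 lower against Aspp1-/-, where 9 and 11 were reported. For that table no bound was set, and the plain difference was counted where the dimmer array was not well above background. How much of the change in counts comes from this was not tested. The additive model called 0 members in every setting, with 34 to 47 (Aspp1) and 16 to 25 (p53) at an unadjusted p under 0.05. Probes near background give bounds only.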
